A study of Mus musculus with 2 samples.

Results

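The widest H3K4me3 islands were examined in replicating cells sorted from the pulp of the mouse incisor, a tooth whose mesenchyme keeps dividing because the tooth never stops growing. An island is a stretch of enriched chromatin called by SICER, a program that joins neighbouring enriched windows. The islands described here were selected on width alone: they lie on chromosomes 1 to 19 and span 8 kb or more (1 bp less as end minus start in the deposited track). There were 728, or 5.24% of the 13892 H3K4me3 islands on these chromosomes, out of 14361 in all. Their widths, and the summit heights measured in the same library, are therefore given as a description. CD1 pups aged 5 days received EdU, a thymidine analogue taken up by replicating DNA, at 3.3 µg per g body weight. The incisor pulp was dissected 24 h later, and EdU-positive cells were sorted for chromatin immunoprecipitation. Each of the marks H3K4me3 and H3K27me3 has 1 library, with the same strain, age, agent and time in the labels, and neither the number of pups nor the genotype beyond the strain is stated there. The sort selects on EdU and not on cell type, so the islands describe a mixture of whatever pulp cells were replicating.

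H3K4me3 is the trimethyl mark placed around active and poised gene starts by the COMPASS-like methyltransferases. At most genes it forms a compact peak just downstream of the start. Very broad domains are known from many tissues at genes of cell identity and also over runs of closely packed active genes. H3K27me3 is the mark of Polycomb repressive complex 2, and places carrying both marks in a mixed sample may hold them on the same chromatin or in different cells, which these data cannot tell apart. The labels mention input DNA libraries, which were not analysed here, and whether the islands were called against them is not stated in the labels. With 1 library per mark there was no replicate spread, no test was made, and shares carry exact binomial (Clopper-Pearson) 95% intervals that cover counting over islands only.

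The letters just before the start differed widely among genes under wide islands. The 250 bases before the first RefSeq start (assembly GRCm38.p6, called mm10) are printed for 4 genes, chosen to show this range at islands with and without H3K27me3. They are written 5′ to 3′ in the direction of the gene, and capitals mark each CG dinucleotide, the site of DNA methylation.
Irf2bp2, chr8:126593987-126594236, minus strand: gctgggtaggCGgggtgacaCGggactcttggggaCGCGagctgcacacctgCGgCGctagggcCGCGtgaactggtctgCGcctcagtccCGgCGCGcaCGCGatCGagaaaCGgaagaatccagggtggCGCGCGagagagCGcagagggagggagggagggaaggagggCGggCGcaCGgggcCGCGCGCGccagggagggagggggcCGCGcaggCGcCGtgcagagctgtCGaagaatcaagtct
Hand2, chr8:57320733-57320982, plus strand: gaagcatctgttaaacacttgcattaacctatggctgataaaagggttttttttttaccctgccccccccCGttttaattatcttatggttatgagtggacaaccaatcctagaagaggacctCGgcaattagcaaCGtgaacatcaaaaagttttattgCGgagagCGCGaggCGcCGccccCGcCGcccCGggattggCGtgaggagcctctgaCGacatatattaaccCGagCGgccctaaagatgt
Msx1, chr5:37824586-37824835, minus strand: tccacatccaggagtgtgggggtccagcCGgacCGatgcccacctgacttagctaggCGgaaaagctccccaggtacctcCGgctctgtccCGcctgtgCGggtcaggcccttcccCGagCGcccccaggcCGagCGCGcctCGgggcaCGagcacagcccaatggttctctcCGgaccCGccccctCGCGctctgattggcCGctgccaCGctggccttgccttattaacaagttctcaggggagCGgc
Rarg, chr15:102257523-102257772, minus strand: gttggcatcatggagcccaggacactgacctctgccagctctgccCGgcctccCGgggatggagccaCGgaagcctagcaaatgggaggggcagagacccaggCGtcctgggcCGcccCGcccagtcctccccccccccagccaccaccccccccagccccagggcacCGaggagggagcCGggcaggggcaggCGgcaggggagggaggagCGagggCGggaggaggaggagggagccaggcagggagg
The window of Irf2bp2, which encodes a transcriptional co-repressor, held 32 CG pairs, and its 14.4 kb island had no H3K27me3. Hand2, a basic helix-loop-helix factor of the jaw and limb, had 15 CG pairs and a GC content of 49.2%, and Msx1, the homeobox factor of tooth bud mesenchyme, had 20 CG pairs. Both their islands lay wholly under H3K27me3. Rarg, a retinoic acid receptor gene, had 11 CG pairs at a GC content of 74.4%, under a 20.4 kb island with no H3K27me3.

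Promoters in wide and in narrower islands had close medians of CG and GC content. Over the 300 bases from 250 before to 50 after the start, 800 protein-coding promoters with their start in a wide island had a median of 22 CG pairs (interquartile range 15 to 30). The 8795 promoters in narrower H3K4me3 islands had a median of 22, also with a range of 15 to 30. Promoters outside every H3K4me3 island numbered 6861 and had a median of 3. Median GC content was 62.3% in both marked sets and 48.0% outside. The motif GGGCGG, the GC box, was found on either strand in 71.6% of the promoters in wide islands, 69.5% of those in narrower islands and 47.3% of all 16456. CCAAT stood in 37.8%, 38.2% and 39.1%, and TATAAA, the TATA box, in 6.0%, 6.17% and 13.5%. None of these motifs contains another, and a match is a description of the window only.

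The members ranged from 8.0 to 28.6 kb, with a median of 9.40 kb (interquartile range of summit height 107 to 172, median 139, in the authors' height units). All H3K4me3 islands of these chromosomes had a median width of 3.60 kb and a median height of 93. At the threshold, 70 islands were 7.999 kb wide, among them those on the frizzled receptor gene Fzd7 (height 192), on Gli1 (97) and on Gstt2 (21), and 85 were 7.799 kb wide, among them those on Ppp1r15b (202), Hivep2 (145) and Herc4 (178). Values on both sides of the threshold thus overlapped in height, and the boundary has no meaning beyond the rule.

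**Figure D1:**
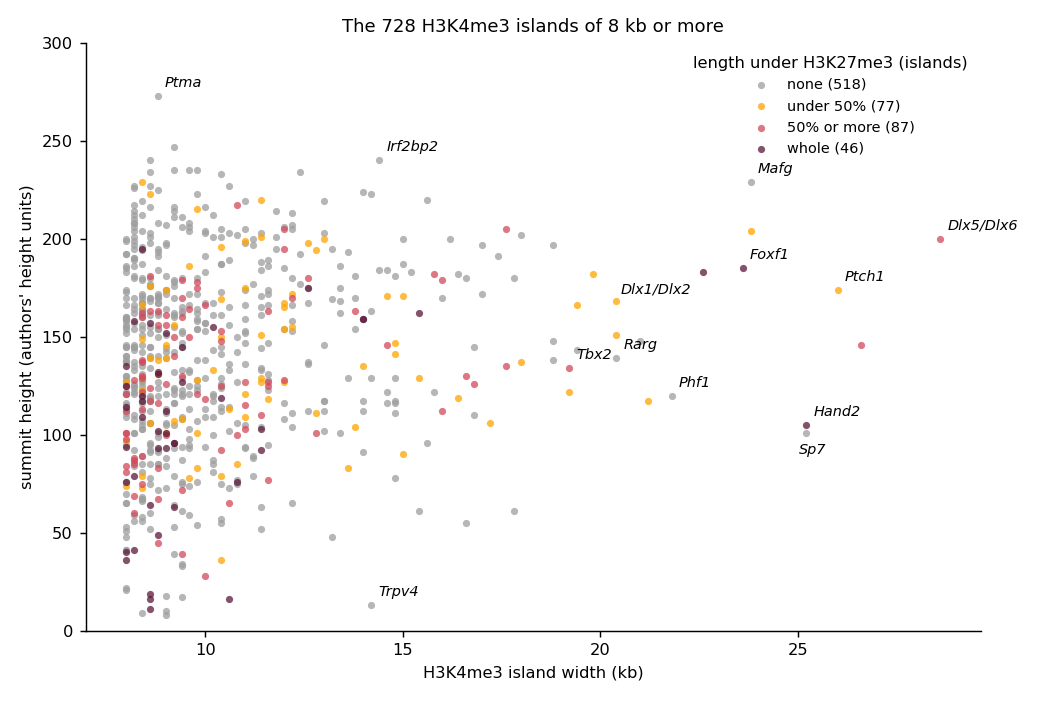
Width in kb against summit height in the authors' height units for the 728 wide H3K4me3 islands; each point is 1 island, coloured by the part of its length under H3K27me3. The 10 widest islands, up to 28.6 kb, have heights of 101 to 229, and islands with no H3K27me3 (518) reach widths of 25.2 kb.

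Several of the 10 widest islands lay on factors of jaw, tooth and bone development. First was a 28.6 kb island on chromosome 6 (6854801 to 6883399, height 200) over the whole of Dlx5 and Dlx6, homeobox genes of the lower jaw, with H3K27me3 over 91.6% of it in 3 separate islands. The island of Ptch1, the hedgehog receptor and a target of its own pathway, was 26.0 kb wide (chromosome 13, 63548801 to 63574799, height 174) and 13.8% covered. Sp7, the osteoblast and odontoblast factor, shared a 25.2 kb island with Aaas (chromosome 15, 102348201 to 102373399, height 101) that had no H3K27me3. Hand2 lay in 25.2 kb on chromosome 8 (57311801 to 57336999, height 105), inside an H3K27me3 island of 50.8 kb. Foxf1, a forkhead factor of mesenchyme, with Mthfsd (23.6 kb, height 185), and Dlx1 and Dlx2 with Metap1d (22.6 kb, height 183), were wholly covered too. Outside the 10 widest, Tbx2, a T-box repressor, had 19.2 kb (height 134), 97.9% covered. Sp6, a factor of tooth epithelium and limb, also outside them, had 20.4 kb (height 151), 48.0% covered.

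Between these, and as wide, were islands over runs of unrelated genes. Pcyt2, Sirt7 and Mafg lay under 23.8 kb on chromosome 11 (height 229), Kifc5b, Phf1 and Cuta under 21.8 kb on chromosome 17 (height 120), and the clock gene Per1 with Hes7 and Aloxe3 under 21.0 kb on chromosome 11 (height 148), all with no H3K27me3. Car11, the clock output factor gene Dbp, Sphk2, Rpl18 and Fam83e lay under 23.8 kb on chromosome 7 (height 204), 19.3% covered. Single-gene islands without H3K27me3 were as wide as 20.4 kb at Rarg, 18.0 kb at Smad7, an inhibitor of TGF-beta signalling (chromosome 18, height 202), and 17.0 kb at Irf2bpl (height 197). Others among the 20 widest held Grn with Fam171a2 (20.4 kb, height 168, 5.88% covered), Akt1, a growth factor kinase gene, with Zbtb42 (19.4 kb, height 166, 22.7%), and Abhd8, Mrpl34, Dda1 and Ano8 (19.4 kb, height 143, none).

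Where the islands lay relative to genes was asked next. At least 1 annotated start of a protein-coding gene lay inside 676 of the 728 (92.9%, interval 90.7 to 94.6%), against 79.5% of all H3K4me3 islands and 92.2% of the 2920 islands of 5 to under 8 kb. For genes without a start in the promoter table either gene end was counted. The wide islands overlapped 1175 different protein-coding genes, or 5.69% of 20661. Islands can share a gene, so there were 1216 pairs of island and gene: in 333 the gene lay wholly under the island, in 537 the island held the 5′ end, in 127 only the 3′ end, in 48 the island lay inside the gene, and in 171 the island held an end of a gene whose strand was not in the table. At least 1 whole gene was covered by 243 islands.

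Wide single-gene islands ran mainly into the gene. Of the 364 single-gene islands, 274 held a gene with a strand in the promoter table, and 246 of these had the first RefSeq start inside. The 246 reached a median of 3.13 kb upstream of it (interquartile range 2.09 to 4.27 kb) and 6.20 kb downstream (4.85 to 7.63 kb). The downstream arm was the longer in 202 of 246 (82.1%, interval 76.7 to 86.7%). For 1471 single-gene islands of 5 to under 8 kb the medians were 1.91 kb upstream and 3.91 kb downstream, with the downstream arm longer in 87.8% (86.0 to 89.4%), and the intervals of these shares overlapped. The arms add up to the width that chose the islands, so their lengths are a description. The summit stayed near the start, at a median of 0.32 kb downstream, and within 1 kb of it in 207 of 246. Rarg was the example of a downstream island, with 1.88 kb upstream and 18.5 kb downstream. Abt1, a small gene of basal transcription, was the opposite, with 15.3 kb upstream and 3.46 kb downstream, and Irf2bpl had 10.6 and 6.41 kb. The whole gene was under the island at 38 of the 246, among them Hand2, Msx1, Msx2, Irf2bp2 and the cell cycle inhibitor gene Cdkn1b. No start from the table was inside at 20 of the 274, including the islands on Dnm1 (14.8 kb), Trpv4 (14.2 kb, height 13), Dnm3 (10.4 kb) and Runx2.

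**Figure D2:**
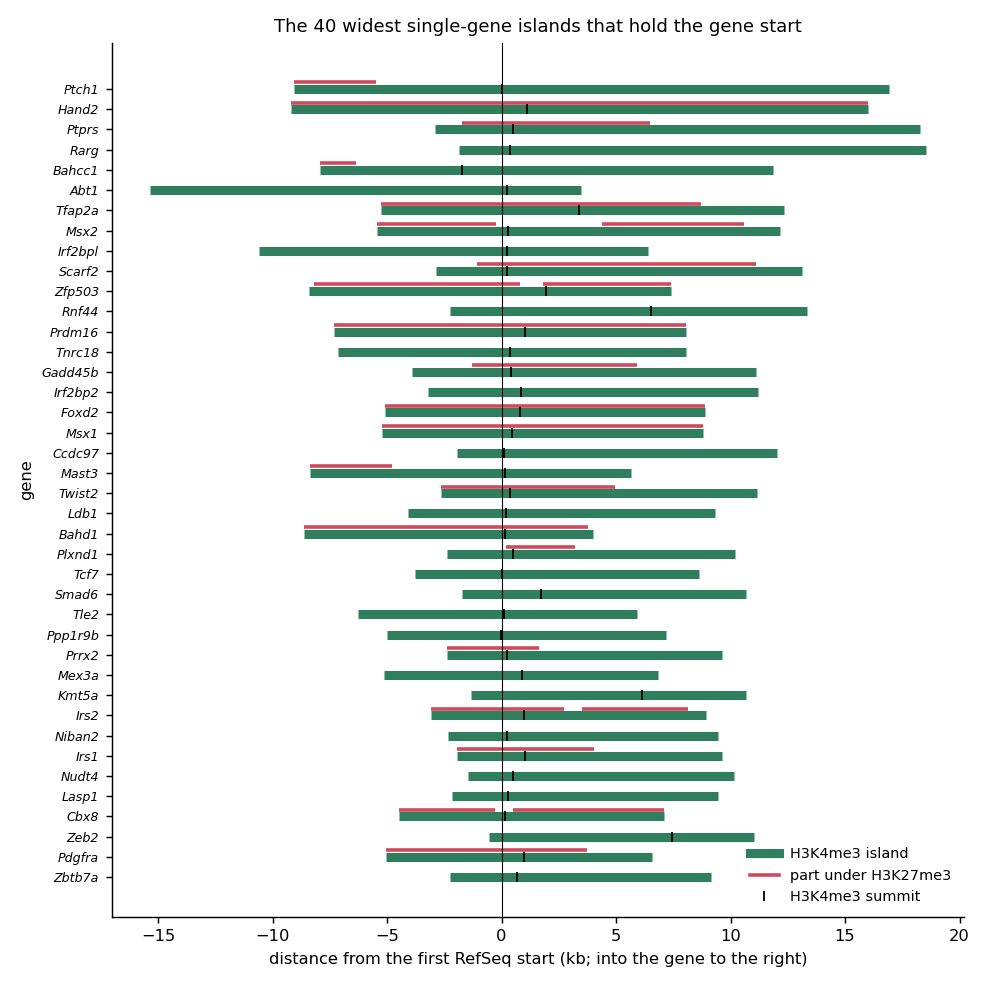
The 40 widest single-gene islands that hold the gene's first RefSeq start, drawn to scale by distance from that start in kb, with the gene to the right; green bars are H3K4me3 islands, red lines above them the parts under H3K27me3 and ticks the H3K4me3 summits. Most bars reach farther into the gene than upstream, Abt1 with 15.3 kb upstream being an exception, and at Ptch1 the H3K27me3 stretch lies apart from the start.

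The number of genes under an island divided the set. Exactly 1 protein-coding gene was overlapped by 364 wide islands (50%), 2 by 231 (31.7%), 3 or more by 115 (15.8%, interval 13.2 to 18.6%) and none by 18 (2.47%). Among all H3K4me3 islands of these chromosomes the shares were 76.1%, 13.1%, 1.51% and 9.24%. A wider interval touches more genes by its length alone, so these shares were not read as a property of the mark. Isolated islands, with 1 gene and no other protein-coding gene within 20 kb, numbered 176 (24.2%, interval 21.1 to 27.5%), against 38.5% of all islands. From these 176 the next gene was a median of 52.9 kb away. Only single-gene islands can be isolated, and of these the share was 48.4% among the 364 wide and 50.7% among 10208 narrower ones. Chromosome 17 had most for its gene number, 65.2 wide islands per 1000 protein-coding genes, and 21 of its 69 spanned 3 or more genes. Chromosome 14 had fewest, 16.5 per 1000.

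Several of the widest isolated islands are named here. With Ptch1 and Hand2 these included Ptprs, a receptor tyrosine phosphatase gene (21.2 kb, height 117, 38.7% under H3K27me3), Bahcc1 (19.8 kb, height 182, 8.08%), Smad7, and Tfap2a, a neural crest factor (17.6 kb, height 135, 79.5%). Msx2, the paralogue of Msx1, had 17.6 kb (height 205, 64.8%), and Tbx3 16.8 kb (height 126, 80.9%). The most crowded island, on chromosome 7 (30551601 to 30566399, 14.8 kb, height 111), overlapped 6: Proser3, Hspb6, Lin37, Psenen, U2af1l4 and Igflr1. Others held 5, such as Mvp, Pagr1a, Prrt2, Maz and Kif22 (17.4 kb), Wdr24, Jmjd8, Stub1, Rhbdl1 and Rhot2 (16.8 kb), and Vegfb, Dnajc4, Nudt22, Trpt1 and Fermt3 (14.8 kb). A cluster of replication-dependent histone genes on chromosome 13, H2ac8, H2bc8, H2bc7, H2ac7 and H3c4, lay under 8.0 kb with a summit of only 22. None of these 5 islands had H3K27me3, while the widest 5-gene island, that of Car11, was 19.3% covered as given above.

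Among 2-gene islands with both strands known, 95 pairs were divergent, with the starts facing away from each other, and 90 of these islands held both starts. In 54 the genes pointed the same way and in 13 towards each other. The classes also hold pairs with 1 gene inside the other, such as Coro7 with Vasn among the divergent ones. Starts of such nested pairs need not lie as the class name says. H3K27me3 touched 10 of the 95 divergent islands (10.5%, interval 5.16 to 18.5%) and 8 of the 54 tandem ones (14.8%, 6.62 to 27.1%), and these intervals overlapped. The share was 3 of 13 for convergent pairs (23.1%, 5.04 to 53.8%) and 20 of 69 where a strand was not in the table (29.0%, 18.7 to 41.2%).

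H3K27me3 was measured in the other library and was not used to choose the islands. It overlapped 210 of the 728 wide islands by at least 1 bp (28.8%, interval 25.6 to 32.3%), against 29.1% of all H3K4me3 islands, a share inside that interval. Cover of the length was less frequent than among all islands. At least 50% of the length was covered in 133 (18.3%, 15.5 to 21.3%), against 25.3% of all islands, and the whole length in 46 (6.32%, 4.66 to 8.34%), against 20.3%. A short island is covered whole more easily, and a wide island has more room to touch H3K27me3, so lengths were compared as well. Of the 7.6 Mb in wide islands, 18.8% lay under H3K27me3, against 20.7% of the 55.4 Mb in all islands and 14.2% of that in islands of 5 to under 8 kb.

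Across widths the overlap fell and then rose. It was 45.2% (43.0 to 47.4%) for islands under 2 kb, 19.8% (18.6 to 21.1%) at 4 to under 6 kb, 21.7% (19.6 to 24.0%) at 6 to under 8 kb, 26.0% (21.9 to 30.4%) at 8 to under 10 kb, 29.2% (23.5 to 35.5%) at 10 to under 15 kb and 49.1% (35.6 to 62.7%) for the 57 islands of 15 kb or more. The covered share of the length did not follow at every step: it was 43.7% under 2 kb, 15% at 6 to under 8 kb, 18.4% at 8 to under 10 kb, 15.2% at 10 to under 15 kb and 29.4% at 15 kb or more. Summit height also differed with width, but did not rise at every step. The median was 22 under 2 kb, 137 at 6 to under 8 kb and 133 at 8 to under 10 kb. It was 147 at 10 to under 15 kb and 151 at 15 kb or more. Among narrower islands at least as high as the lower quartile of the wide ones (107), 12.3% of 5510 overlapped H3K27me3 (11.4 to 13.2%) and 7.8% of their length was covered. The part of height in the rise at great widths was not tested.

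**Figure D3:**
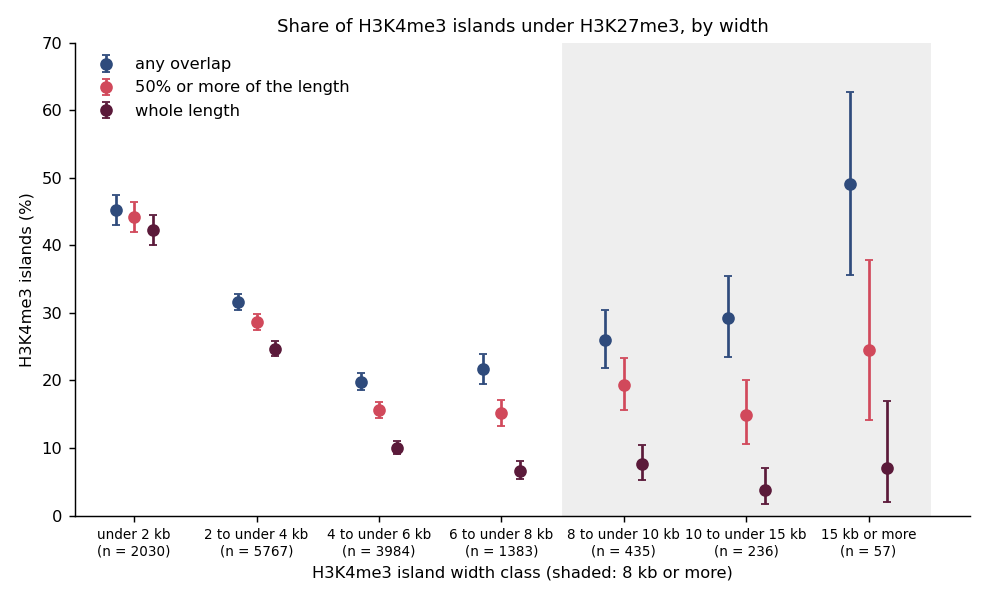
Share in % of H3K4me3 islands of chromosomes 1 to 19 in each width class with any H3K27me3 overlap, with 50% or more of the length covered and with the whole length covered; points are shares and bars exact binomial 95% intervals over islands. Any overlap is 45.2% under 2 kb, 19.8% at 4 to under 6 kb and 49.1% at 15 kb or more, while whole cover stays at 3.81 to 7.59% in the shaded classes.

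Wide islands on single genes carried H3K27me3 more often than those on several. The mark touched 142 of the 364 single-gene islands (39.0%, interval 34.0 to 44.2%), 41 of the 231 with 2 genes (17.7%, 13.0 to 23.3%) and 22 of the 115 with 3 or more (19.1%, 12.4 to 27.5%). Covered length came to 27.6%, 11.0% and 8.91%. At least 50% was covered in 97 single-gene islands (26.6%) and in 5 multi-gene islands (4.35%). Isolated islands stood at 44.3% overlap (78 of 176, 36.8 to 52.0%) and 32.6% of length, and single-gene islands with a neighbour within 20 kb at 34.0% (64 of 188, 27.3 to 41.3%), with overlapping intervals. In narrower islands the share was also highest with a single gene, at 31.0% of 10208 with 1 gene, 17.3% of 1595 with 2 and 12.6% of 95 with 3 or more. Summit heights were alike in the wide classes, with medians of 140, 145 and 137 for 1, 2 and 3 or more genes. In the narrower classes the medians were 95, 117 and 113.

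**Figure D4:**
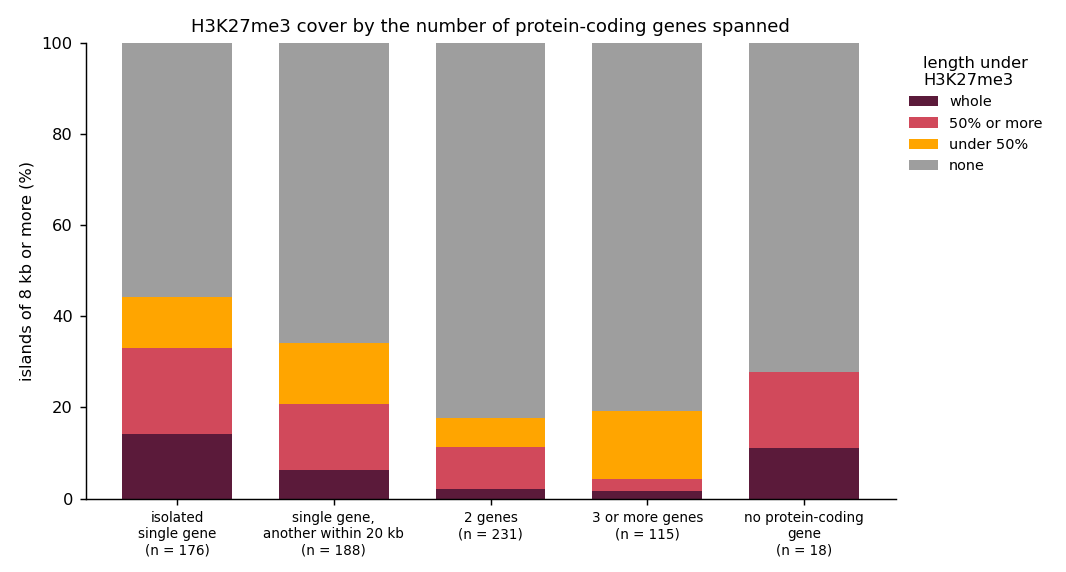
Share in % of wide islands by the part of their length under H3K27me3, for isolated single-gene islands, other single-gene islands, and islands with 2, 3 or more, or no protein-coding genes; each bar sums to 100% of its islands. Overlapped islands make up 44.3% of the isolated class and 17.7% and 19.1% of the classes with 2 and with 3 or more genes.

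H3K27me3 took several arrangements on the 210 overlapped islands. The whole island was covered in 46, H3K27me3 reached across 1 edge in 105 and both edges, with gaps between, in 5, and it lay inside the island with both edges free in 54. Islands covered whole lay in wide Polycomb domains, of 18.8 kb at the median (9.60 to 66.6 kb) with a median H3K27me3 height of 46. On the 164 partly covered islands the H3K27me3 islands were smaller and lower, 7.0 kb and 15 at the median, beside 6.20 kb and 12 for all H3K27me3 islands. An H3K27me3 island must be at least as wide as an island it covers whole, so the split itself sets much of this difference in width. H3K4me3 summits ran the other way, with median heights of 107 on the islands covered whole, 130 on those covered in part and 145 on those with none. The H3K4me3 summit itself lay under H3K27me3 in 96 of the 164, whose summed length was 51.1% covered.

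The 10 widest islands covered whole are named here. After Hand2, Foxf1 and the Dlx1 and Dlx2 pair came Prdm16, a fat and craniofacial factor (15.4 kb, height 162), the forkhead gene Foxd2 (14.0 kb, height 159, in 66.6 kb of H3K27me3), Msx1 (14.0 kb, height 159, in 26.4 kb), Sall3 (12.6 kb, height 175), Pax9, the paired box factor of tooth mesenchyme (11.4 kb, height 103, in 35.8 kb), Lhx8 (11.4 kb, height 92) and the zinc finger gene Sp9 (10.8 kb, height 76). Some others had low H3K4me3 summits, beside the median of 107 for islands covered whole: 16 at Skor1 (10.6 kb, in 30.2 kb of H3K27me3), 16 at Islr2 and 36 at the blood factor gene Gata2.

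Besides Ptprs, Sp6 and Msx2, wide islands with 25 to 75% under H3K27me3 held Slc26a10, Arhgef25, Dtx3 and Pip4k2c (18.0 kb, height 137). Others held the tumour suppressor gene Hic1 with Ovca2 and Dph1 (height 112) and the stress response gene Gadd45b (48.0% covered). The H3K27me3 height at the Hic1 island was 111, beside a median of 12 for all H3K27me3 islands. Heights of different marks are not compared with each other.

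On partly covered islands H3K27me3 could spare the gene start. Of 65 such single-gene islands that held the first start, the start lay under H3K27me3 in 42 and was free in 23. H3K27me3 lay only upstream of the free start in 11, Ptch1 and Bcl11a among them, only downstream in 10, such as Fosb and Socs3, and on both sides in 2, Msx2 and Cbx8. At Msx2 the H3K4me3 island ran from 5.42 kb upstream to 12.2 kb downstream, and H3K27me3 covered 5.42 to 0.22 kb before the start and 4.38 to 10.6 kb after it. At Cbx8, a Polycomb subunit gene, it left from 0.29 kb before to 0.51 kb after the start. At Ptch1 it ended 5.47 kb before the start. At Msx2 and Cbx8 the nearest H3K27me3 edge was thus little more than 1 step of 200 bp, the spacing of island edges, from the start.

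Genes of the tooth and its signals were then looked up among the wide islands by lists of known function. Of all protein-coding genes 5.69% were overlapped. Factors of dental and cranial mesenchyme were overlapped in 22 of 31 (71.0%, interval 52.0 to 85.8%), by 20 islands of 9.0 to 28.6 kb. H3K27me3 touched 21 of these 22 genes' islands and covered 50% or more at 19, Sp7 being the exception with none. Genes that share an island each count here, and over all wide islands the shares were 28.8% and 18.3%, or 39.0% and 26.6% for single-gene ones. Besides those named above these included Dlx3 (9.80 kb, height 178, 73.5% covered), the mesenchymal homeobox genes Prrx1 (9.0 kb, 97.8%) and Prrx2 (12.0 kb, 33.3%), Twist2 (13.8 kb, 55.1%), Alx1 (12.8 kb, 51.6%) and Alx4 (10.2 kb, 100%), Foxf2 (9.0 kb, 100%) and Runx2, the master factor of bone (9.20 kb, 30.4%). The 9 listed genes without a wide island included Twist1 (5.20 kb), Barx1 (4.4 kb), Lhx6 (4.6 kb) and Pitx1 (5.00 kb), and Hand1, with no H3K4me3 island over it. Listed fate regulators of unrelated tissues (nervous system, gut, heart, muscle) were overlapped in 0 of 23 (upper limit of the interval 14.8%). Their widest islands were at Lmx1b (5.00 kb, height 13) and Nkx2-2 (4.20 kb, height 16). The list is a selection, and the 0 holds for its members only. The blood factor gene Gata2, named above and not on the list, lay under a wide island covered whole by H3K27me3. Both lists were chosen with earlier results of these data known, and neighbouring list members such as Dlx5 and Dlx6 share an island. The intervals over genes therefore do not measure support for the contrast between the lists.

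Signalling pathways are the routes by which dental mesenchyme and epithelium instruct each other. In the hedgehog pathway they lay on 4 of 13 genes, among them the receptor gene Ptch1 and the effectors Gli1 (8.0 kb, 40% covered) and Gli3 (9.0 kb, none). The ligand gene Shh had 4.6 kb and a height of 21. In the Wnt list they lay on 7 of 20, all 7 isolated: the receptors Fzd2 (11.4 kb, height 220, 47.4%) and Fzd7, the transducer Ctnnb1 (8.40 kb, none), the feedback gene Axin2 (11.2 kb, none), the nuclear factors Tcf7 (12.4 kb, none) and Lef1 (8.80 kb, 100%), and the antagonist Wif1 (8.40 kb, 47.6%). Tcf7 and Lef1 both encode DNA-binding partners of beta-catenin, the first without and the second with H3K27me3 over its island. In the BMP and TGF-beta list 5 of 20 were overlapped, all isolated: the ligand Bmp7 (9.80 kb, 71.4%), the inhibitory Smad6 (12.4 kb, height 234, none) and Smad7, and the targets Id2 (9.40 kb, none) and Id3 (10.4 kb, 28.9%). The receptor-activated Smad1, Smad3 and Smad5 had 4.4, 7.40 and 3.80 kb.

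In the FGF list 4 of 14 were overlapped, namely Fgf3 (8.0 kb, 100%), Fgfr1 (8.2 kb, height 217, none), and the feedback inhibitors Spry4 (9.60 kb, shared with Arhgap26, 56.2%) and Dusp6 (9.80 kb, none). In the Notch list these were 4 of 14: the receptor Notch1 (9.80 kb, none), the ligand Dll1 (9.0 kb, 100%), the effector Hes1 (9.80 kb, 40.8%) and the glycosyltransferase gene Lfng (8.0 kb, 95%). Immediate early factors, which answer growth signals and cell handling, were overlapped in 6 of 14: Fosb (10.4 kb, 82.7%), Fosl1, which shares 11.0 kb with Ccdc85b and Fibp, Fosl2 (9.40 kb), Egr3 (8.2 kb, 73.2%), Ier2 (8.40 kb) and Atf3 (8.2 kb, 100%).

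In the Polycomb list, which also held an H3K27 demethylase gene, 6 of 24 genes were overlapped. Ring1 lay under 14.2 kb with H2-Ke6, Slc39a7 and Rxrb, Pcgf2 under 13.8 kb with Psmb3, and Phf1 in its multi-gene island, all with no H3K27me3. Cbx8 (11.6 kb, height 127) was 93.1% covered, and the H3K27 demethylase gene Kdm6b shared 19.2 kb with Dnah2, 11.5% covered. Of 25 cell cycle genes 5 were overlapped: the cyclin genes Ccnd1 (8.0 kb, 27.5%) and Ccnd2 (8.60 kb, 97.7%), Cdk4, Mcm2 and Mcm7. Cdk4 lay in a 3-gene island of 14.8 kb. The replication helicase gene Mcm2 shared 11.6 kb with Tpra1, and Mcm7, another, shared 14.8 kb with Cops6 and Ap4m1. In these shared islands the cell cycle gene cannot be told from its neighbours. The list of kinase inhibitors and pocket proteins had 11 genes and also held Trp53, the gene of p53, which is neither. Overlapped in it were Cdkn1b (11.4 kb) and Trp53, sharing 10.2 kb with Wrap53. Of 28 genes of cytoplasmic ribosomal proteins 7 were overlapped, 5 of them in islands of 3 or more genes, where the list member cannot be told from its neighbours.

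Matrix genes and markers of other pulp cell types were looked up as well. Of 18 matrix and collagen genes, Col1a1 (10.6 kb, height 73) and Mmp14 (11.6 kb, with Mrpl52) were overlapped, and Col1a2 and Col3a1 had 4.4 and 4.80 kb. Of 14 odontoblast and mineral genes, Col1a1, Runx2 and Sp7 were overlapped. Dspp, Dmp1, Ibsp, Spp1, Mepe and Bglap, which define mature odontoblasts and osteoblasts, had no H3K4me3 island over the gene. Narrower islands lay over Alpl (height 70), Enpp1 (107), Slc20a1 (138), Slc20a2 (120) and Ank (111), genes of phosphate handling. Markers of epithelium (10 genes), endothelium (11) and glia and nerve (9) had 0 under wide islands, with upper limits of 30.8%, 28.5% and 33.6%. Narrower islands lay over 7 genes in each of these 3 lists, for example Epcam (3.40 kb, height 58) and Kdr (3.60 kb, height 65). Of 10 blood markers 3 were overlapped, in each case together with other genes: Cd68 with Mpdu1 (8.2 kb), Lyl1 with Nfix (8.60 kb, height 11, 100% covered) and Coro1a with Slx1b and Bola2 (11.4 kb). Narrower islands lay over Cd79a (4.2 kb, height 123) and Spi1 (2.40 kb, height 30), and the other 5, Ptprc, Cd3e, Itgam, Csf1r and Laptm5, had no island over them. Of 9 pericyte and smooth muscle markers, only Mcam was overlapped (9.40 kb, height 39, 63.8% covered). Pdgfrb (7.799 kb, height 52), Cspg4 (height 47), Notch3 (height 72) and Tagln (height 6) had narrower islands. Rgs5, Acta2, Myh11 and Des had no island over them.

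**Figure D5:**
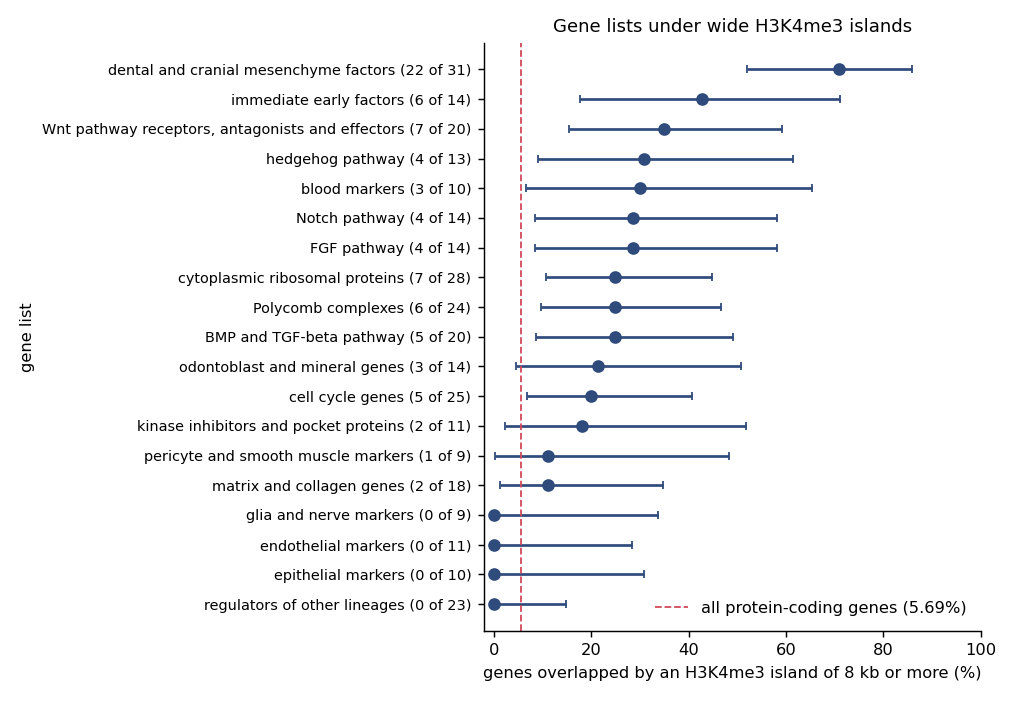
Share in % of the genes of each list on chromosomes 1 to 19 that an H3K4me3 island of 8 kb or more overlaps; points are shares, bars exact binomial 95% intervals over genes, and the dashed line the share of all protein-coding genes, 5.69%. Dental and cranial mesenchyme factors stand highest at 71.0%, and 4 lists stand at 0. The lists were chosen with earlier results of these data known and genes that share an island each count, so the bars cover counting only.

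Of the wide islands, 18 had no protein-coding gene, and most of these lay on noncoding genes. Of these, 13 overlapped some annotated gene, 10 a long noncoding RNA gene and 4 a group of transfer RNA genes. Malat1, an abundant nuclear noncoding RNA, lay under 11.2 kb on chromosome 19 (5795201 to 5806399, height 88). The tRNA islands were on chromosomes 19 (9.40 kb, height 76), 17 (9.0 kb, height 84), 1 (8.2 kb, height 88) and 13 (8.0 kb, height 41). The widest of the 18, 18.8 kb on chromosome 15 (85663601 to 85682399, height 197), overlapped no annotated gene of any type. It lay 23.1 kb from D130051D11Rik and 21.4 kb from Lncppara, both long noncoding RNA genes, and a second gene-free wide island of 8.40 kb lay beside it (85650401 to 85658799, height 66). A gene-free island of 8.60 kb on chromosome 8 (56618401 to 56626999, height 19) lay wholly under H3K27me3. Without an input library analysed here, mappability or copy number at such places cannot be told apart from the mark.

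MicroRNA (miRNA) genes lay under 40 wide islands. Mature sequences from the RefSeq table were taken for 50 such genes, in 38 of these islands. That step did not cover every chromosome, so the 50 may be too low. It is therefore not read as a share of the 966 miRNA genes with a mature sequence on these chromosomes. A miRNA pairs with its targets through the seed, bases 2 to 8, shown in capitals. The sequences are given for 5 groups of neighbouring or related miRNA genes, chosen with their values in view, each of which holds a pair with a shared seed.
miR-181c-5p: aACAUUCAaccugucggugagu
miR-181d-5p: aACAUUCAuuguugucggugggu
miR-199a-3p: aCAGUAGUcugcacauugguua
miR-199b-3p: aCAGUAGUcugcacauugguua
miR-214-3p: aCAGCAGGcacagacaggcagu
miR-106b-5p: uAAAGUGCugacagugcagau
miR-93-5p: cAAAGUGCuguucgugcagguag
miR-25-3p: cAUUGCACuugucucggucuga
miR-132-3p: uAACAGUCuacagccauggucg
miR-212-3p: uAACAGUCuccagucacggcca
miR-195a-5p: uAGCAGCAcagaaauauuggc
miR-497a-5p: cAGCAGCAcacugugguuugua
Mir181c and Mir181d, with the seed ACAUUCA, lay in a 9.20 kb island on chromosome 8 (84178401 to 84187599, height 79) that held no protein-coding gene, and a second gene-free island of 8.0 kb (84197001 to 84204999, height 145) lay 3.52 kb from Mir23a. Mir199b and Mir199a-2, whose 3p strands have the same sequence, lay in different islands that overlap dynamin genes and miss the dynamin start: 14.8 kb at the 3′ end of Dnm1 (height 129) and 10.4 kb inside Dnm3 (height 57), the latter with Mir214 and the noncoding gene Dnm3os. Neither had H3K27me3. Mir106b, Mir93 and Mir25 lay in the 14.8 kb island of Cops6, Mcm7 and Ap4m1, and the first 2 share the seed AAAGUGC. Mir132 and Mir212, with the seed AACAGUC, lay in the 16 kb island of Hic1, Ovca2 and Dph1, which was 73.7% covered by H3K27me3. Mir195a and Mir497, with the seed AGCAGCA, lay in the 17.2 kb island of Bcl6b, 0610010K14Rik, Rnasek and Alox12, 40.7% covered. An island over a miRNA gene marks chromatin there and says nothing of the level of the mature miRNA.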

How the data were processed

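Called islands of 1 H3K4me3 and 1 H3K27me3 library were analysed. The submitters' processing notes name BWA, SICER and the build mm10, with versions and settings not given in the sources used here. The authors deposited an island track and a summit track per mark, per the file headers. The summit height the authors deposited is a score of unstated scaling and was used only within a mark. Rows of both tracks were joined by order, and each summit lay in its island. Adding 1 bp made the width of each of the 25702 islands divisible by 200 bp. Positions are 1-based. No read counts were given, so the depth of the libraries is unknown.

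Genes came from RefSeq (GRCm38.p6), with starts for 16456 of 20661 protein-coding genes on chromosomes 1 to 19, and either gene end was used for the rest. The first start is the outermost one in that promoter table. A gene or H3K27me3 island counted as overlapping at 1 bp or more. The overlap code (Python 3.11.15, pandas 2.3.3, scipy 1.17.1) was tested on 300 simulated intervals with 0 mismatches. All 318 listed genes were found in the table, 314 of them on chromosomes 1 to 19. Genes were named from the 20 widest islands, the widest isolated, uncovered, partly covered and wholly covered ones, the most crowded, those with extreme summits, those next to the threshold, gene-free islands and list members. Some chosen for an arrangement (Abt1, Cbx8, Bcl11a, Socs3, Gata2 and the miRNA genes) were picked with their values in view. Some list members and islands are not reported here by name. The members and lists were chosen with earlier results of these data known. Alternatives were other width thresholds, merged islands, higher summits, other gene sets, other distances and other overlap minimums.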

Additional observations from a re-analysis of the deposited data

Results flagged for a closer look

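Chromosome X was outside the selection. It held 4 H3K4me3 islands of 8 kb or more, 0.857% of its 467 (interval 0.234 to 2.18%), against 5.24% (4.88 to 5.62%) on chromosomes 1 to 19. They lay on Bcor (11.2 kb, height 59, wholly under H3K27me3), Wdr45 with Praf2 (9.40 kb, height 38), Efnb1 (9.20 kb, height 121) and Flna (8.2 kb, height 88). They were noted because they are a signal outside the islands analysed, more than the 3 islands taken as the limit for a count of 0.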

How the results depend on the processing

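No paired analysis was possible because each mark has 1 library and no result comes from a test. Of 75 recomputed values, 39 stayed within their interval or within 1.5 times the count and 36 moved beyond it. At a threshold of 10 kb there were 293 islands, 40.3% with a single gene, 27% with 3 or more, 19.8% isolated, 95.6% with a start inside and 33.1% overlapping H3K27me3 (50% of single-gene ones), and 43 listed genes lay under them. At 6 kb there were 2111 islands, with shares of 60.4%, 7.91%, 28.8% isolated and 24.2% overlapping (28.5% of single-gene ones), and 125 listed genes. Merging islands within 1000 bp gave 46.1% single-gene and 19% multi-gene. With higher summits of both marks a start was inside 96.7%, 19.7% overlapped H3K27me3, 13.1% were mostly covered, 13.7% of the length was covered, and 27.1% of single-gene islands overlapped. With higher summits of H3K27me3 only, chosen after seeing the data, these were 21.4%, 14.8%, 14.9% and 28.6%. Genes of every type gave 30.5% single-gene, 29.0% multi-gene and 7.55% isolated, and genes sharing 50% or more gave 69.4% and 4.4%, with 31.7% of single-gene islands overlapping. No other gene within 10 or 50 kb gave 32.1% and 13.2% isolated. Requiring 25% overlap and 75% cover gave 25.1% and 11.5%. In each setting run for it, single-gene islands overlapped H3K27me3 more often than multi-gene ones (multi-gene 13.0 to 24.2%). With the thresholds of 10 and 6 kb, merging and higher summits of both marks, 17 to 25 of the 31 dental factors lay under wide islands. Unknown depth means a weak H3K27me3 place may go uncalled.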

Other observations

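Some wide islands were neighbours. Another wide island lay within 20 kb of 140 members, which formed 62 runs of up to 4. A run on chromosome 9 (107533801 to 107591599, 57.8 kb) covered Tmem115, Cyb561d2, Nprl2, Zmynd10, Rassf1, Tusc2, Hyal2, Hyal1, Naa80, Hyal3 and Ifrd2 with 4 wide islands and no H3K27me3. A run on chromosome 17 (33915001 to 33959999, 45.0 kb) covered Daxx, Zbtb22, Tapbp, Rgl2, Pfdn6, Wdr46, B3galt4, Rps18 and Vps52 in the same way. Of the 140, 27 overlapped H3K27me3, beside 210 of all 728. Genes at a boundary, such as Rgl2, were overlapped by 2 islands.

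Summit heights of the members spanned 8 to 273. The highest were at Ptma (273), Fscn1 (247), Irf2bp2 (240), Pim1 (240) and Tcf3 (235), all single-gene islands with no H3K27me3. Klhl21 and Arid1a had the same height as Tcf3. Of 75 members above 200, 74 held a gene start and 9 overlapped H3K27me3 (12.0%, interval 5.64 to 21.6%). Of 13 members at 30 or less, 6 held a start. The lowest were at Kctd10 (8), at the far end of Smad7 (9), in a gene-free stretch of chromosome 11 (10), at Lyl1 with Nfix (11) and at Trpv4 (13). The second island of Smad7, 8.40 kb wide, began 0.80 kb beyond the tall one. Without read counts, a low wide island cannot be told apart from a run of weak windows joined by the caller.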
